A study of Mus musculus with 9 samples.

Results

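Sqle, Insig1 and Hmgcs1 are the genes of cholesterol synthesis and its control that were followed here, 3 of the 2402 genes in a table of bulk messenger RNA levels from sorted mouse bone marrow cells. They were chosen by name, with earlier results of these data known, and all 3 were measured in each of the table's 9 rows and passed the filter on low values, at least 10 normalized counts in at least 2 rows. The labels describe 9 samples from male C57BL/6 mice in which Flt3-cre is combined with the mTmG reporter, a cross called FlkSwitch. In this reporter every cell is red (Tomato, Tom) unless it, or an ancestor, has expressed the Flt3-driven Cre, after which it is green (GFP). The groups are GFP+ megakaryocyte progenitors (MkP, sorted as Lin-, cKit+, Sca1-, CD150+, CD41+) from young mice of 3 months, with 3 samples, and 3 populations from old mice of 18 to 20 months, with 2 samples each. The old populations are MkP of either colour, GFP+ or Tom+, and Tom+ HSC, which are haematopoietic stem cells sorted as Lin-, cKit+, Sca1+, CD150+ and Flk2-. One label field gives the old mice as 20 months only. Whether samples came from separate or pooled animals is not stated.

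The rows of the table carry no sample names, so no row was tied to an age, a reporter colour or a group, and none of the comparisons between groups was made. Rows are numbered 1 to 9 in the order of the table, as a name only. Rows are called stem-like where Ly6a, which encodes the Sca1 antigen used in the sort, had at least 1000 normalized counts, and progenitor-like otherwise. Rows 3 and 4 are stem-like by this value, with 4256 and 5772 normalized counts of Ly6a. The highest progenitor-like value was 187, in row 9, and the lowest was 20.98, in row 6. These names rest on Ly6a alone and do not assign a row to a labelled sample, and no mean or test was taken over them.

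Cells make cholesterol from acetyl-CoA through the mevalonate pathway and then through squalene. Hmgcs1 encodes the cytosolic HMG-CoA synthase, an early step of that pathway, and Sqle encodes squalene epoxidase, which oxidises squalene ahead of the closure of the sterol rings. Insig1 encodes a membrane protein of the endoplasmic reticulum that, when sterols are plentiful, retains the SCAP–SREBP complex there and promotes the degradation of HMG-CoA reductase. The transcription factor SREBP, once released, is known to switch on synthesis genes and Insig1 itself, so that the pathway and its brake share an activator. Cholesterol handling is known to bear on the proliferation of bone marrow progenitors, including those of the megakaryocyte line.

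The start regions of Hmgcs1 and Insig1, both known SREBP targets, are shown, and none was available here for Sqle. The levels of Hmgcs1 and Insig1 ran differently over the rows, and a link between sequence and level was not tested. Each line gives 200 bases in the direction of transcription, from 250 to 51 bases before the RefSeq start, in build GRCm38.p6 (mm10). Capitals mark matches, on either strand, to the motifs TCACNCCA (a sterol regulatory element, bound by SREBP), CCAAT (NF-Y) and GGGCGG (Sp1).
Hmgcs1, chr13:119690101-119690300, plus strand: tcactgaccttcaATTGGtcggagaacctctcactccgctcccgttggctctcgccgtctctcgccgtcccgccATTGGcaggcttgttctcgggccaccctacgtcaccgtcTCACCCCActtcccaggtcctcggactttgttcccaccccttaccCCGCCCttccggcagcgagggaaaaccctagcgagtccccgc
Insig1, chr5:28071162-28071361, plus strand: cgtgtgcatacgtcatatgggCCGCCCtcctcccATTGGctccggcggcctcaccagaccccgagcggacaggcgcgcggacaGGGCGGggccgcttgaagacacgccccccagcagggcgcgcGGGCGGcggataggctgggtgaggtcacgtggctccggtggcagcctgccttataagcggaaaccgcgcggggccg

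The Hmgcs1 window held 1 match to TCACNCCA, 2 to CCAAT and 1 to GGGCGG, none of them overlapping. The Insig1 window held 0 matches to TCACNCCA, 1 to CCAAT and 3 to GGGCGG. Of 32851 RefSeq windows of the same length, 2.90% held TCACNCCA, 28.4% held CCAAT and 24.6% held GGGCGG. A match is a string of letters and not a shown binding site, and other windows and other spellings were not searched. In the GENCODE M21 annotation of mm10 the protein-coding genes lie on the plus strand of chromosome 13 from 119690379 to 119708260 (Hmgcs1), of chromosome 5 from 28071363 to 28078662 (Insig1) and of chromosome 15 from 59315077 to 59331192 (Sqle). Hmgcs1 overlaps the annotated gene Gm48342, and reads from the overlap cannot be told apart here because the use of strand in counting is not given.

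Sqle, the squalene epoxidase gene, was low in the stem-like rows under the deposited scaling. It had 543, 555, 223, 384, 1155, 883, 691, 664 and 523 normalized counts in rows 1 to 9. The deposited unit is a read count scaled per library, and 1 read was worth 0.724 to 1.96 normalized counts. Row 3 was the lowest, with 189 reads and a 95% exact Poisson counting interval of 192 to 257 normalized counts, and row 4 was the next lowest, with an interval of 344 to 428. Row 5 was the highest, with 1063 reads and an interval of 1087 to 1227. The highest row exceeded the lowest 5.18-fold (95% exact conditional binomial interval 4.43 to 6.08, counting error only). Among the progenitor-like rows alone the ratio was 2.21-fold, between rows 5 and 9 (interval 2.01 to 2.43). Without row 3 the ratio over the other rows, with 1 added to each value, was 3.00-fold. In the order of levels, 3 of the 8 neighbouring pairs did not differ beyond counting error, namely rows 7 and 8, rows 2 and 1, and rows 1 and 9. The step from row 9 down to row 4 was 1.36-fold (interval 1.19 to 1.55) and that from row 4 to row 3 was 1.72-fold (interval 1.44 to 2.07), so the stem-like rows also differed from each other.

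Insig1, the sterol-sensing brake of the pathway, had the opposite order at its upper end. Its levels in rows 1 to 9 were 82.0, 133, 241, 214, 70.6, 115, 49.1, 98.6 and 93.4 normalized counts. The stem-like rows 3 and 4 were the highest, with 204 and 187 reads, and did not differ beyond counting error (ratio 1.12, interval 0.918 to 1.38). Row 2 came next, and row 4 exceeded it 1.60-fold under the deposited scaling (interval 1.21 to 2.15). Row 7 was the lowest, with 32 reads and an interval of 33.6 to 69.3. The highest row exceeded the lowest 4.90-fold (interval 3.36 to 7.35), and the progenitor-like rows spanned 2.72-fold, from row 7 to row 2 (interval 1.76 to 4.27). The other 7 of the 8 neighbouring pairs in the order of levels did not differ beyond counting error.

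Hmgcs1, the early synthase gene, did not set the stem-like rows apart under the deposited scaling. It had 68.9, 78.5, 74.3, 85.8, 119.5, 165, 72.2, 76.5 and 99.95 normalized counts in rows 1 to 9, from 40 to 138 reads. Row 6 was the highest, with an interval of 137 to 198, followed by row 5 with 98.2 to 144. The stem-like rows lay among the others, in the fourth and seventh place from the top. The highest row exceeded row 1, the lowest, 2.40-fold (interval 1.67 to 3.49), and this was also the span of the progenitor-like rows. Only the step from row 6 to row 5 (1.38-fold, interval 1.06 to 1.81) was beyond counting error, and the other 7 neighbouring pairs were not. Without row 6 the ratio over the other rows was 1.72-fold with 1 added to each value, so the size of the spread rests in part on that library.

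**Figure D1:**
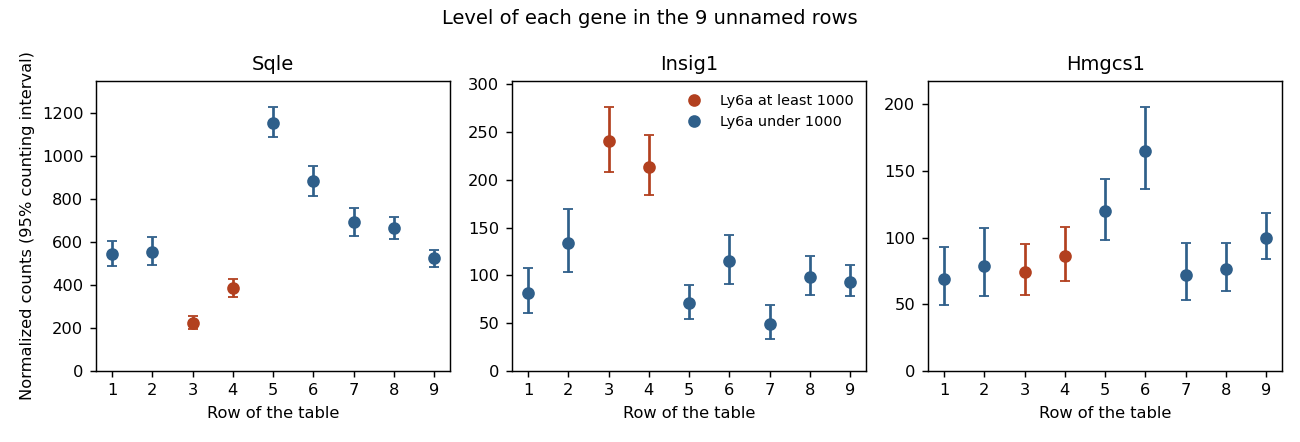
Normalized counts of Sqle, Insig1 and Hmgcs1 (vertical axes from 0) against the row of the table, with 95% exact Poisson counting intervals as bars and the colour set by Ly6a. Rows 3 and 4 are the lowest for Sqle (223 and 384) and the highest for Insig1 (241 and 214), and lie among the other rows for Hmgcs1 (74.3 and 85.8).

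The spreads of the members were at or below the middle of those in the table. On normalized counts with 1 added, the scale used for all genes, the ratios of the highest to the lowest row were 5.16 for Sqle, 4.82 for Insig1 and 2.38 for Hmgcs1, beside a median of 6.16 over the 2341 genes that passed the filter. All 3 members reached a ratio of 2-fold, as did 96.1% of genes, and 2 of the 3 reached 4-fold, as did 66.4% of genes. The ratio was wider than that of Sqle in 55.6% of genes, than that of Insig1 in 58.1% and than that of Hmgcs1 in 90.5%. Reads of all 3 members differed between rows beyond counting error by a chi-square test with Benjamini-Hochberg adjustment over all genes, and so did those of 98.7% of genes. That test compares libraries, not conditions.

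**Figure D2:**
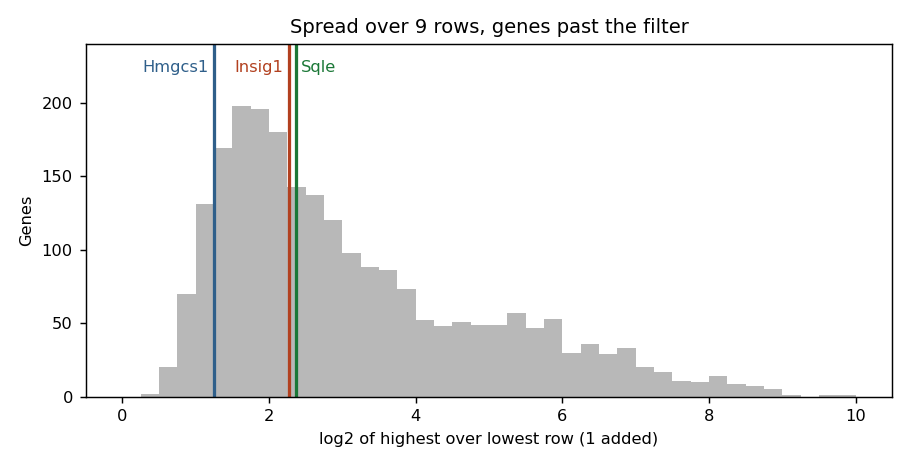
Number of genes (vertical axis) by the log2 ratio of the highest to the lowest of 9 rows, with 1 added to each value (horizontal axis), for 2341 genes. The coloured lines mark Hmgcs1 (2.38-fold), Insig1 (4.82-fold) and Sqle (5.16-fold), all to the left of the all-gene median of 6.16-fold.

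The position of the stem-like rows was read against the same background. Both lay below all other rows for 40.8% of genes, as for Sqle, and both above all other rows for 51% of genes, as for Insig1. Neither held for 8.29% of genes, as for Hmgcs1. A place at either end was therefore common in this table, whose genes were selected in a way that the sources used here do not give. Rows 5 and 6 were the highest pair for Sqle and for Hmgcs1, which held for 2.52% of genes, and this feature was singled out after the values were seen. It did not hold when rows were scaled to their table totals, where rows 5 and 8 led for Sqle and rows 6 and 4 for Hmgcs1.

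The scaling between rows bears on each of these levels, since rows 3 and 4 had the lowest totals, 2112179 and 2345427 normalized counts over the table, beside 2882352 to 4858285 in the other rows. Relative to the deposited values, scaling to the table total multiplied rows 3 and 4 by 1.56 and 1.40, and median-of-ratios scaling multiplied them by 0.700 and 0.847. Insig1 was highest in rows 3 and 4 under the deposited scaling and under table-total, median-of-ratios and trimmed-mean-of-M-values scaling. By median of ratios these rows stood at 168 and 181, beside 140 in row 2. Whether they exceeded row 2 beyond counting error under that scaling was not tested. Sqle was lowest in row 3 under all 4 scalings. Row 4 was the next lowest for Sqle under 3 of them but stood at 540 under table-total scaling, sixth of the 9 rows from the top, with row 7 at 469. For Hmgcs1 the direction depended on the scaling, since rows 3 and 4 were the lowest rows by median of ratios, at 52.0 and 72.7, and ranked 3 and 2 from the top by table total, at 116 and 121.

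**Figure D3:**
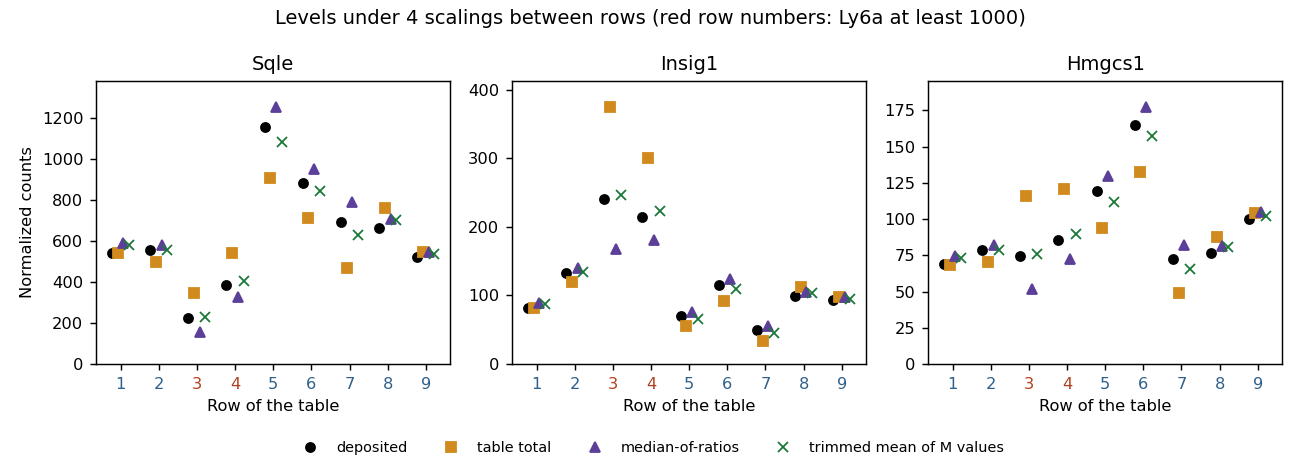
Normalized counts (vertical axes from 0) of the 3 genes in rows 1 to 9 under the deposited scaling and 3 other scalings brought to the same overall level. The stem-like rows 3 and 4 stay highest by value for Insig1 under each scaling, at 168 and 181 by median of ratios beside 140 in row 2. For Hmgcs1 they move from 52.0 and 72.7 (median of ratios) to 116 and 121 (table total).

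A ratio of the reads of 2 genes within a row does not depend on the scaling between rows. The balance of the brake gene to the synthesis gene was set out in this way. Rows 1 to 9 had 15.1, 24.0, 107.9, 55.7, 6.11, 13.0, 7.11, 14.8 and 17.9 reads of Insig1 per 100 reads of Sqle. The stem-like rows were the highest, row 3 with an interval of 88.1 to 132 and row 4 with one of 46.3 to 66.7, and the next, row 2, had an interval of 18.2 to 31.4. Rows 5 and 7 were the lowest, with intervals of 4.68 to 7.86 and 4.81 to 10.2. The ratio thus spanned 17.7-fold over the 9 rows, 9.10-fold without row 3 and 3.93-fold over the progenitor-like rows alone. Under the deposited scaling both stem-like rows lay above all others for 51% of genes and below all others for 40.8%. A ratio of any gene of the first kind to any of the second is also highest in rows 3 and 4. The span was not set against those of other gene pairs.

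The pairs with Hmgcs1 gave narrower spans. Hmgcs1 had 12.7, 14.1, 33.3, 22.3, 10.3, 18.7, 10.4, 11.5 and 19.1 reads per 100 reads of Sqle in rows 1 to 9, a 3.22-fold span (2.16-fold without row 3, and 1.85-fold over the progenitor-like rows). Row 3 was the highest, with an interval of 24.7 to 44.6, but the interval of row 4, 17.1 to 28.7, overlapped those of several others, such as rows 6 and 9. By span, with counting error not taken out, both synthesis genes kept a nearer ratio to each other than either kept to Insig1. Insig1 had 119, 170, 324, 249, 59.1, 69.5, 68.1, 129 and 93.5 reads per 100 reads of Hmgcs1, with rows 3 and 4 again the highest. This ratio had a 5.48-fold span (4.22-fold without row 3, and 2.88-fold over the progenitor-like rows). The interval of row 4, 190 to 330, overlapped that of row 2, 113 to 258, and whether these rows differed beyond counting error on this ratio was not tested.

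**Figure D4:**
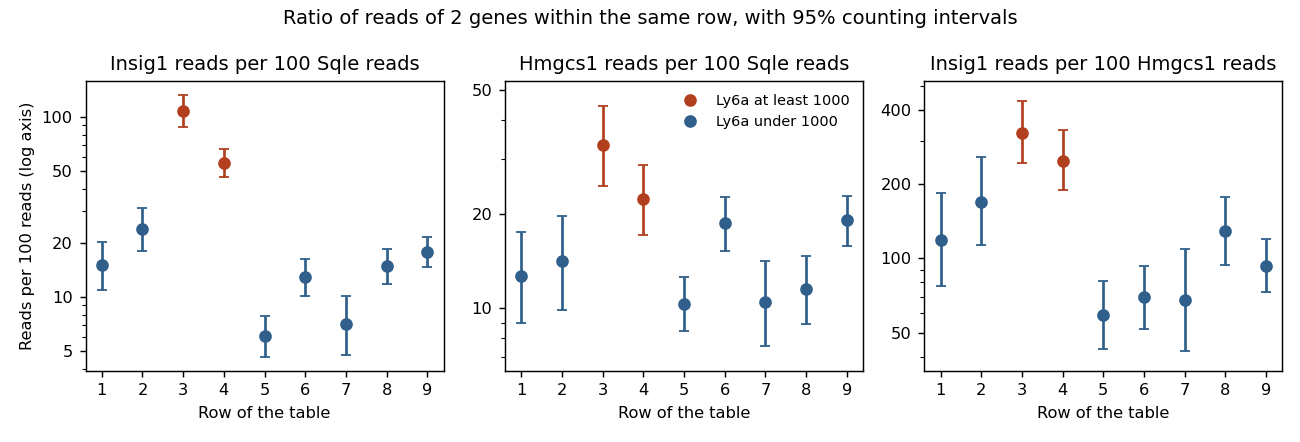
Reads of one gene per 100 reads of another in the same row (vertical axes, log scale) against the row of the table, with 95% exact conditional binomial intervals. Insig1 per 100 Sqle reads runs from 6.11 in row 5 to 107.9 in row 3, while Hmgcs1 per 100 Sqle reads stays between 10.3 and 33.3.

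Levels can be set between genes only per length. With the annotated exons of each gene merged, 5.55 kb for Sqle, 3.09 kb for Insig1 and 4.59 kb for Hmgcs1, the median level over the rows was 100.2 normalized counts per kb for Sqle, 31.9 for Insig1 and 17.1 for Hmgcs1. Sqle had the highest level per kb of the 3 in each progenitor-like row. In row 4 Sqle and Insig1 stood level, at 69.3 and 69.2 per kb, and in row 3 Insig1, at 77.8, was above Sqle, at 40.2. By value, Hmgcs1 was the lowest of the 3 in every row but row 5, where it had 26.0 per kb and Insig1 22.8. Hmgcs1 and Insig1 were near each other in row 6 (35.9 and 37.1) and in row 7 (15.7 and 15.9). Whether they differed beyond counting error per kb in these rows was not tested. Merged exons overstate the length of the transcripts in use, and the coverage along transcripts is not known here.

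Other genes of sterol synthesis, its control, sterol handling and fatty acid synthesis are called pathway genes here. They were taken from lists of 70 symbols, 1 gene under 2 names among them, of which 14 were in the table, the members included. All 14 passed the filter and spanned at least 2-fold over the 9 rows, as did 96.1% of genes, and 7 spanned at least 4-fold, as did 66.4% of genes. Reads of all 14 differed beyond counting error, as did those of 98.7% of genes. Their median span was 3.75-fold, beside 6.16-fold over all genes. The stem-like rows were both below all other rows for 7 of the 14, both above them for 5, and neither for Hmgcs1 and Fads2, beside 40.8%, 51% and 8.29% of all genes. Under table-total scaling 3 were below and 5 above, beside 23.7% and 55.9% of all genes. Under median-of-ratios scaling 8 were below and 2 above, beside 41.7% and 38.3%.

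Among the genes listed for synthesis, Ebp, the sterol isomerase gene, followed Sqle in being lowest in the stem-like rows. It had 165 and 275 normalized counts in rows 3 and 4, beside 373 to 757 in the other rows, and it kept that place under all 4 scalings. Acat1, listed with them but a mitochondrial acetoacetyl-CoA thiolase gene that acts in ketone body metabolism, had 1182 and 1049 in rows 3 and 4, beside 1642 to 2315 elsewhere. Ggps1, whose enzyme takes the mevalonate pathway toward protein prenylation instead of sterols, ran the other way, with 368 and 270 in rows 3 and 4 and 125 to 252 elsewhere. The place of Ggps1 did not hold under median-of-ratios scaling, nor that of Acat1 under table-total scaling. Ggps1 also overlaps Arid4b in the annotation.

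Genes of sterol-regulated protein degradation were split in the same table. Rnf145, an endoplasmic reticulum ubiquitin ligase gene linked to the turnover of HMG-CoA reductase, had 571 and 416 normalized counts in rows 3 and 4, beside 184 to 383 elsewhere. Rnf139, which encodes a ligase that binds Insig proteins, had 230 and 215, beside 108 to 166. The conjugating enzyme gene Ube2g2 and Aup1, whose product recruits that enzyme, were instead lowest there, with 1683 and 1745 for Ube2g2 (2167 to 4268 elsewhere) and 5450 and 6283 for Aup1 (8720 to 12593 elsewhere). None of these 4 genes kept its place under every scaling: the ligase genes lost it by median of ratios and the other pair by table total. Rnf139 overlaps Tatdn1, and Aup1 overlaps Htra2.

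Under the deposited scaling the widest spans of the pathway were in genes of sterol uptake, transport and storage. Tmem97, whose product is a sterol-regulated partner of the cholesterol transporter NPC1, ranged 23.6-fold (interval 19.6 to 28.7), from 137 in row 3 to 3230 in row 7. Scarb1, the receptor for high-density lipoprotein, ranged 9.53-fold (interval 8.67 to 10.5), from 577 in row 3 to 5496 in row 7. Row 4 was the next lowest for both, with 332 for Tmem97 and 1162 for Scarb1. Soat1, which esterifies cholesterol for storage, had its highest values in rows 4 and 3, at 130 and 81.4, and its lowest in row 5, at 6.52 with 6 reads. These 3 genes kept rows 3 and 4 at the same end by value under all 4 scalings. Soat1 had few reads, 69 in row 3 and 42 in row 8, its next highest row. Whether these rows differed beyond counting error for Soat1 was not tested. Fads2, a fatty acid desaturase gene, had its highest value in row 8, at 3577, followed by row 9 at 1779, with rows 4 and 3 next at 1670 and 1320 and the other rows between 528 and 697.

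**Figure D5:**
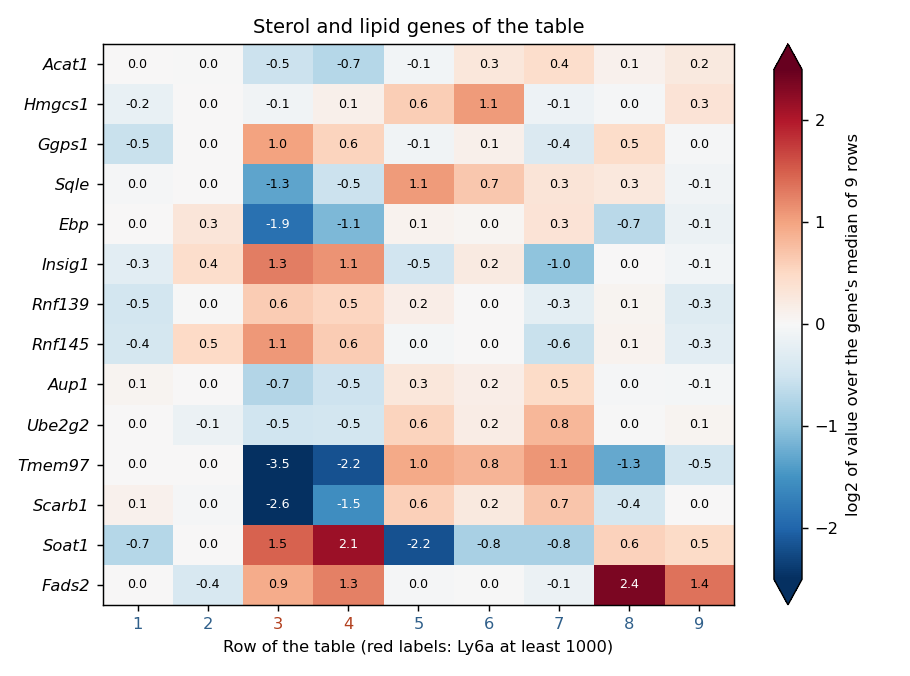
The log2 ratio of each value to that gene's median over 9 rows (colour and printed number) for the 14 pathway genes of the table (vertical) in rows 1 to 9 (horizontal), under the deposited scaling. Rows 3 and 4 are low for Sqle, Ebp, Tmem97 and Scarb1 and high for Insig1, Rnf145 and Soat1, and rows 8 and 9 are highest for Fads2.

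Likeness between genes was measured as the SD over the 9 rows of the log2 ratio of 2 genes, which is small when they move in parallel and does not depend on the scaling. Among 1644 genes with at least 10 normalized counts in every row, those most like Sqle were Hsph1, a heat shock protein gene (SD 0.22), Ptbp1, a splicing regulator (0.23), and Ttc13 (0.25), beside a median of 0.96 over all compared genes. Over the 7 progenitor-like rows the same 3 genes had SDs of 0.22, 0.25 and 0.24, beside a median of 0.51. These rows were among the 9 used to pick the genes, so these values are no separate check. Those most like Insig1 were Gprasp1, which sorts G protein-coupled receptors (0.18), Elac1, a transfer RNA nuclease (0.22), and Aldh3a2, a fatty aldehyde dehydrogenase (0.23), with a median of 1.09 over all genes. Gprasp1 had 67.2 and 52.6 normalized counts in rows 3 and 4, 10.8 in row 7 and 20.6 to 29.4 in the other rows. Those most like Hmgcs1 were Tcea1, a transcription elongation factor (0.34), Dhx15, a splicing helicase (0.35), and Hnrnpr, an RNA-binding protein (0.35), with a median of 0.81. No pathway gene was among these 9. They were picked for having the smallest SDs of all compared genes, so low values follow from the choice. Counting error was not taken out of the SDs, and in row 7 Gprasp1 had 7 reads and Elac1 10. The members were less like each other than these picked genes were, with an SD of 0.57 for Sqle and Hmgcs1, 0.86 for Insig1 and Hmgcs1 and 1.32 for Sqle and Insig1. The SD of Sqle and Hmgcs1 was below both their medians, with 589 genes nearer to Sqle and 303 nearer to Hmgcs1. For Insig1 and Hmgcs1, 681 genes were nearer to Insig1 and 891 to Hmgcs1. For Sqle and Insig1, 1179 were nearer to Sqle and 1138 to Insig1.

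Marker genes of cell types differed between the same rows. The stem cell markers in the table, 4 of 7, include Ly6a, which set the names of the rows. The other 3, Procr, Hlf and Mecom, summed to 3802 to 6583 normalized counts in rows 3 and 4 and 30.4 to 155 in the others. The 7 of 10 megakaryocyte markers were each lowest in rows 3 and 4 and summed to 3061 to 8764 there and 72965 to 135706 in the others. The 5 of 7 cell cycle genes in the table were also each lowest there, with sums of 4103 (row 3) and 13730 (row 4) beside 33097 to 65493. The 3 of 8 erythroid markers summed to 287 to 309 beside 5752 to 8528, with Rhd overlapping between the sets. For comparison, rows 3 and 4 both lay below all other rows for 40.8% of all genes and above them for 51%. These shares and the marker values are under the deposited scaling, and the markers were not examined under the others.

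Markers of other lineages did not move as lists. Of the 4 of 6 granulocyte and monocyte markers, Prtn3 (11466 and 12248 beside 313 to 2006) and Csf3r (668 to 862 beside 6.14 to 119.5) were highest in rows 3 and 4. The defining genes Csf1r and Cebpa were lowest there, Cebpa at 0 in both rows and Csf1r at 0 in row 3 and 1.14 in row 4, and reached 41.2 (Cebpa) and 82.6 (Csf1r) in other rows. The list summed to 12329 to 12916 beside 366 to 2142, nearly all of it Prtn3. Of the 3 of 6 lymphoid markers, Nkg7 was lowest in rows 3 and 4 (185 to 667 beside 2153 to 27162), Lck was highest there (43.5 to 44.8 beside 6.99 to 26.8), and Vpreb1 overlapped (5.72 to 8.26 beside 3.26 to 12.3). Their sum, 238 to 716 beside 2174 to 27189, follows Nkg7. The 2 of 4 mast cell and macrophage markers summed to 0 to 3.43 beside 23.8 to 125, with Cd5l at 0 in rows 3 and 4 and Fcer1a at 0 in rows 3, 5 and 7. The part of cell type, cell cycle or lineage mixture in the levels of Sqle and Insig1 was not tested. In bulk samples, fewer cells that express a gene and less RNA per cell cannot be told apart.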

How the data were processed

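The authors deposited a single table of normalized counts, a signal in which each library has its own scale, for 2402 genes in 9 unnamed rows. The submitters' processing notes name mm10, Bowtie2, STAR and DESeq, without roles or versions. How reads were counted, annotated and scaled, and how the genes were selected, is not given in the sources used here. Per the labels' protocols, Trizol was used for RNA and a NEBNext Ultra kit for the libraries.

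Low values in a row are whole multiples of 1 step. Dividing by it gave whole reads within 0.1 for 100% of values, and 1790670 to 4373460 reads per row over the genes of the table, which is not their full depth. A row listed at 0 may hold a rate of up to 3 reads. Intervals (95%) are exact Poisson for a level and exact conditional binomial for a ratio. They cover counting error only, since reads are not independent molecules, and take the scaling as given. No 2 rows were copies: the closest pair, rows 5 and 7, had 13.7 times the chi-square per gene expected from counting.

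Spans were taken for the 2341 genes that reached 10 normalized counts in 2 or more rows, on log2(value + 1). The chi-square test used an adjusted p threshold of 0.05. Named genes were the members, all measured pathway genes, Ly6a, and the 3 genes most like each member, leaving out predicted genes. Pathway genes were matched by symbol, and 0 more by synonym. The planned comparison of groups needed row names and was not run. The members and lists were chosen with earlier results of these data known. Alternatives were 3 other scalings, pseudocounts of 0.5 and 5, no filter, and rows left out. Count models were not used, since without row names there were no groups to compare. Steps were tested on simulated data. The set of RefSeq start regions used here covered 2 of the 3 members and had none for Sqle. Python 3.11.15, numpy 2.4.6, pandas 2.3.3, scipy 1.17.1 and matplotlib 3.10.9 were used.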

Additional observations from a re-analysis of the deposited data

How the results depend on the processing

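The span of Sqle (5.16-fold) was 2.61-fold under table-total scaling, 7.99-fold under median-of-ratios scaling and 2.21-fold without rows 3 and 4. For Insig1 (4.82-fold) the values were 10.97, 3.19 and 2.68. The span of Hmgcs1 stayed within its counting interval under these settings. With each row left out in turn, the span lay between 3.00 (without row 3) and 5.16 for Sqle, 3.37 (without row 7) and 4.82 for Insig1, and 1.72 (without row 6) and 2.38 for Hmgcs1. Without rows 3 and 4, 1358 of 2133 genes spanned at least 2-fold and 443 at least 4-fold, beside 2249 and 1555 of 2341 with all rows. Leaving out 1 row gave 1974 to 2243 genes for the 2-fold count and 1108 to 1546 for the 4-fold count, and 2121 to 2311 genes that differed beyond counting error. The lowest count came without row 3 each time, where fewer genes, 2212, passed the filter. The shares of those genes were 89.2% (2-fold), 50.1% (4-fold) and 95.9% (beyond counting error), beside 96.1%, 66.4% and 98.7% with all rows.

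Both stem-like rows, 3 and 4, were above the rest for 51% of genes and below it for 40.8%. These shares were 55.9% and 23.7% under table-total scaling and 38.3% and 41.7% by median of ratios, alternatives added after seeing the data. Pseudocounts, the filter and the trimmed mean of M values left all spans within their counting intervals and all counts within 1.5 times. No paired analysis was possible because the rows carry no sample names or replicate numbers. With 32 to 204 reads per row for Insig1 and 40 to 138 for Hmgcs1, most neighbouring rows could not be separated.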
